A study of Mus musculus with 5 samples.

Results

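The clustered histone genes encode the linker histone H1 and the core histones H2A, H2B, H3 and H4, around which DNA is wrapped. They were chosen by symbol, as genes whose older names begin with Hist1h, Hist2h, Hist3h or Hist4h or that carry the matching current names. No measured value entered this rule, but it was set with earlier results of these data known. The rule found 90 probes of 60 genes, of 34885 probes with 1 gene symbol and 19057 genes in all. Of these genes, 47 lie on chromosome 13, 9 on chromosome 3, 3 on chromosome 11 and 1 on chromosome 6. By class there were 7 probes of H1, 24 of H2A, 20 of H2B, 18 of H3 and 21 of H4.

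RNA came from total bone marrow cells of male BALB/c mice, an inbred strain, aged 7 to 8 weeks. The 4 irradiated groups had received total body gamma-rays in a single dose of 4 Gy and were killed 3, 7, 11 or 21 days later, given as days after irradiation (DAI), and sham-irradiated mice served as 0 DAI. Each of the 5 groups was measured on 1 Illumina MouseWG-6 BeadChip array, so there is no spread between replicates, no test is possible, and values are called by size alone. The methods describe marrow of several mice for each time, but also RNA of 4 irradiated mice and 1 sham-irradiated mouse, so whether an array holds 1 mouse or a pool is not settled, and either way it has no measure of the spread between animals.

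Most genes of these clusters are used while a cell copies its DNA, when new histones are needed to package the new strands. Their mRNAs end in a short stem-loop in place of a poly(A) tail, and a set of dedicated factors, among them the stem-loop binding protein, makes and later removes that end. A smaller part of the transcripts of some of these genes does carry a poly(A) tail. Reverse transcription here was started by oligo(dT), which binds such tails, and the share of each histone mRNA that was copied was not tested. The genes of a class are near copies of each other, and without the probe sequences it cannot be told how much signal the probes of 1 class share.

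The RefSeq promoter table of build GRCm38.p6 listed 54 of the 60 genes, as 55 windows of the 250 bases before the start site. They were searched on both strands for ATTTGCAT, the octamer bound by the POU factors, for CCAAT, the core letters of the site of NF-Y, and for TATAAA, a form of the TATA box. The octamer stood in 14 of the 55 windows (25.5%), against 1.60% of all 32851 windows of the table. It was found in 7 of 17 H2A windows and 7 of 13 H2B windows, and in none of the 6 H1, 7 H3 and 12 H4 windows. CCAAT was present in 81.8% of the members' windows, against 33.8% of all windows, with all 6 H1, 17 H2A and 13 H2B windows, 6 of 7 H3 windows and 3 of 12 H4 windows. TATAAA was present in 47.3%, against 12.4%. Many H2A and H2B genes start back to back, so that their windows overlap and are not separate observations.

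Each of 4 promoters is shown for a result given further on, with the letters of a motif in capitals and all other bases in lower case. The first is the whole stretch between the start sites of H2ac8 and H2bc8, at chr13:23571221-23571399 on the plus strand, which has 1 octamer, 2 CCAAT and 1 TATAAA. The next is the stretch between H2ac11 and H2bc11, at chr13:22042950-22043197 on the plus strand, with 5 CCAAT. The promoter of H1f2, at chr13:23738557-23738806 on the plus strand, has 1 CCAAT, and that of H4f16, at chr6:136804432-136804681 on the minus strand, holds none of the motifs.
H2bc8: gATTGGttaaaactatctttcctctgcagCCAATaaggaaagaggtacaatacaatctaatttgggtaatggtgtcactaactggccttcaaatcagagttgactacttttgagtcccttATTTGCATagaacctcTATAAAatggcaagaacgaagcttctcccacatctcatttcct
H2bc11: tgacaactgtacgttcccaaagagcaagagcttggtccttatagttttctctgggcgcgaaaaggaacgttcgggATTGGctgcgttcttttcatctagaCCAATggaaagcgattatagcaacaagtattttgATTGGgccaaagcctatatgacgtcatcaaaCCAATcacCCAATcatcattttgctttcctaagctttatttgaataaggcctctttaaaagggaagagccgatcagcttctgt
H1f2: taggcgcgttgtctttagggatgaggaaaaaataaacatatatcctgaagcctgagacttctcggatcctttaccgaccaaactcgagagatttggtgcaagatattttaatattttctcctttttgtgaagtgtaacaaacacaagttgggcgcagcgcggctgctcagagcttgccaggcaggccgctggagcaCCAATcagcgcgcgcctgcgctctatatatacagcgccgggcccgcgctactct
H4f16: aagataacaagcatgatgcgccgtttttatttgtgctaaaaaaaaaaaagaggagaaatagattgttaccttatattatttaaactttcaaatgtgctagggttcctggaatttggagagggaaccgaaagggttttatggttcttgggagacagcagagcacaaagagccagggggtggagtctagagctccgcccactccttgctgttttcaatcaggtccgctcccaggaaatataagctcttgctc

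A signal of 64 was taken as the floor, lower signals were raised to it, and a log2 ratio was formed where at least 1 of the 2 arrays was above it. Of the 90 probes, 77 of 53 genes exceeded the floor on 1 array or more and 72 on all 5. The remaining 13 probes were under it throughout, among them those of the linker histone genes H1f3, H1f4 and H1f6 and of the H2A and H2B genes H2ac1 and H2bc1. Probes with a log2 ratio of 1 or above, or -1 or below, which is 2-fold, were called. At 3 DAI, 25 of the 77 probes were lower and 0 were higher than at 0 DAI, while 4.39% of all probes with a ratio were lower and 5.21% higher. At 7 DAI, 50 were lower and 0 higher, against 3.71% and 3.93% of all probes. At 11 DAI, 45 were lower and 0 higher, against 5.45% and 5.63% of all probes. At 21 DAI, 22 were lower and 2 higher, against 3.86% and 2.66% of all probes.

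The median log2 ratio of the 77 probes was -0.87, -1.31, -1.15 and -0.82 at 3, 7, 11 and 21 DAI. Over all probes with a ratio the median was 0.11, 0.10, 0.09 and 0.15 at these times, and it was between -0.04 and 0.03 when each array was scaled to a common median. The pooled median of the members was lowest at 7 DAI, but over probes H1, H2A and H2B had their lowest class median at 11 DAI. For H2A and H2B the medians at 7 and 11 DAI were close, at -0.09 and -0.12 and at -1.40 and -1.44. With the brightest probe of each gene, H1 had -1.62 at 7 DAI and -1.17 at 11 DAI, and H2A had -0.09 and -0.08. Signals of 61 of the 77 probes were highest on the 0 DAI array, which holds for 12.3% of all probes above the floor. For 38 probes the lowest signal was at 7 DAI, against 20.1% of all probes. For 27 it was at 11 DAI, and the share of all probes lowest at 11 DAI was not computed. A set of 11 probes was lower at all 4 times, against 0.928% of all probes. The members' part of the summed signal was 3.58% on the 0 DAI array and 2.83%, 2.55%, 2.48% and 2.85% on those of 3, 7, 11 and 21 DAI. In total marrow, fewer cells that make histone mRNA and less of it per cell cannot be told apart.

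All 4 ratios of a probe are taken against the same 0 DAI array. With the mean of the 3 remaining irradiated arrays as baseline instead, the median of the members was 0.16, -0.29, -0.14 and 0.21 at 3, 7, 11 and 21 DAI, with 1, 2, 4 and 0 probes lower and 3, 1, 1 and 2 higher. Over all probes with a ratio to this baseline, 3.57%, 3.25%, 6.21% and 3.31% were lower and 3.29%, 3.57%, 3.54% and 0.477% higher. The members' counts were within a few probes of these shares, the 2 probes higher at 21 DAI being above theirs, and the lower level at all 4 times is a difference from 1 sham-irradiated array.

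**Figure D1:**
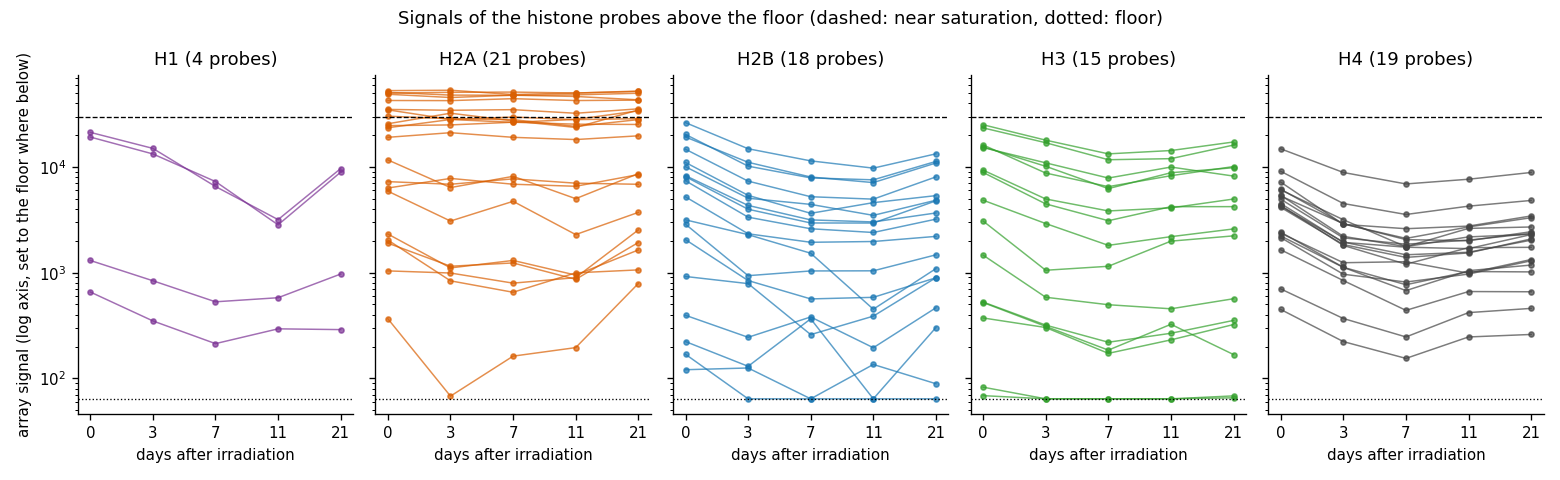
Array signal (log axis) of the 77 histone probes above the floor by days after irradiation, 1 panel for each class and 1 line for each probe, 1 array a time. The H4 lines share 1 course, with the lowest signal of 16 of 19 at 7 DAI, and the brightest H2A lines run flat above the dashed line at 30000.

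H1 histones bind the DNA between nucleosomes and help to compact it. The H1f2 gene is measured by 2 probes, the brightest of the class. The first had signals of 21263 on the 0 DAI array and 14990, 6536, 3176 and 9662 on those of 3, 7, 11 and 21 DAI. The other had 19200, 13284, 7278, 2836 and 8935 at the same times. Both were highest at 0 DAI and lowest at 11 DAI, later than the other measured H1 genes, with log2 ratios of -2.74 and -2.76 at 11 DAI. At 3 DAI their ratios were -0.50 and -0.53, at 7 DAI -1.70 and -1.40, and at 21 DAI -1.14 and -1.10. The step between 7 and 11 DAI was -1.04 and -1.36, where 8.98% of all probes were lower by 2-fold, and the step between 11 and 21 DAI was 1.61 and 1.66, where 6.11% were higher.

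The other measured linker histones had their minimum at 7 DAI. H1f5 had 1305 on the 0 DAI array and 838, 530.0, 579 and 971 on those of 3, 7, 11 and 21 DAI, with ratios of -0.64, -1.30, -1.17 and -0.43. H1f1 had 656, 349, 213, 294 and 289, with ratios of -0.91, -1.62, -1.16 and -1.18. All 4 H1 probes were thus called lower at 7 and 11 DAI, 0 at 3 DAI and 3 at 21 DAI. The median of the class was -0.58, -1.51, -1.96 and -1.12 at 3, 7, 11 and 21 DAI, but 2 of its 4 probes are of H1f2. With the brightest probe of each gene it was -0.64, -1.62, -1.17 and -1.14.

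H2A pairs with H2B in the nucleosome. Its probes were called less often than those of each other class at 7, 11 and 21 DAI, but 10 of the 21 measured were near saturation. At 3 DAI 3 of 21 H2A probes were lower, beside 2 of 15 H3 probes and 0 of 4 H1 probes. Of the 21 H2A probes above the floor, 3, 2, 5 and 0 were lower at 3, 7, 11 and 21 DAI, and 15 were lower at no time. The class median was -0.08, -0.09, -0.12 and 0.01 at the 4 times. Over the 11 H2A probes not above 30000 it was -0.73, -0.39, -0.91 and 0.02, with 3, 2, 5 and 0 lower. Of 15 H3 probes, 2, 11, 4 and 3 were lower, so these 11 were not called less often than H3 at 3 and 11 DAI. The class median was thus flatter with the near-saturated probes at 3, 7 and 11 DAI, while at 21 DAI both medians were flat. Of those 11, the second probes of H2ac7 and H2ac12, at 24607 and 19083 at 0 DAI, were flat as well. Their ratios lay between 0.02 and 0.11 and between -0.07 and 0.14. The 10 probes of other classes between 15000 and 30000 at 0 DAI had medians of -0.57, -1.28, -1.20 and -0.83. Outside H2A, 22, 48, 40 and 22 of the 56 other histone probes were lower, with medians of -0.94, -1.41, -1.24 and -0.92.

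The 10 probes above 30000 on at least 1 array, of 8 genes, all belonged to H2A. Signals above 30000 were taken as near saturation, where an array can read a difference as smaller than it is. The scanner's range was not given, so how far these probes were affected was not tested. The brightest, a probe of H2ac20, had 52783 on the 0 DAI array and 53224, 48465, 50040 and 51794 on those of 3, 7, 11 and 21 DAI. None of the 10 was called, and their ratios were between -0.32 and 0.53. H2ac10 and H2ac13 had 2 such probes each, and H2ac7, H2ac12, H2ac15, H2ac20, H2ac22 and H2ac24 had 1 each. Other probes above 30000, 92 in all, had a median of -0.09 at 7 DAI, and 5 of them were lower.

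Of 4 H2A probes between 5000 and 15000 at 0 DAI, 2 were flat and 2 were called lower at 11 DAI. H2ac11 had signals of 6323 on the 0 DAI array and 7795, 6867, 6567 and 8469 on those of 3, 7, 11 and 21 DAI, with ratios between 0.05 and 0.42. H2ac21 had 7267, 6862, 7718, 7026 and 6859, with ratios between -0.08 and 0.09. H2ac19 had 11657, 6385, 8154, 5013 and 8647, with ratios of -0.87, -0.52, -1.22 and -0.43. The brightest probe of H2ac18 had 5902, 3079, 4731, 2292 and 3718, with ratios of -0.94, -0.32, -1.36 and -0.67. The median of these 4 probes was -0.48, -0.12, -0.63 and -0.26, against -1.01, -1.46, -1.34 and -1.06 for 16 histone probes of the other classes in the same range. Whether the flat probes share signal with the brighter copies was not tested.

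Some of the dimmer H2A probes did fall. H2ac4 had 2036 on the 0 DAI array and 837, 652, 997 and 1062 on those of 3, 7, 11 and 21 DAI, and its ratios were -1.28, -1.64, -1.03 and -0.94. A second probe of H2ac20 had 2320, 1109, 1305, 948 and 1640, with ratios of -1.06, -0.83, -1.29 and -0.50. The 2 probes of H2ac20 differed by 1 or more at 3 and 11 DAI, but the bright one is near saturation, which leaves the size of that difference unmeasured. A dimmer probe of H2ac18 was, like H2ac19 and the brightest H2ac18 probe, called lower at 11 DAI alone, with a ratio of -1.14.

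Only H2A probes were called higher, both at 21 DAI. H2ac8 had 1039 on the 0 DAI array and 992, 796, 897 and 2535 on those of 3, 7, 11 and 21 DAI, so that the last array stood alone, with a ratio of 1.29. H2ac6 had 366, 67.9, 162, 195 and 789, with ratios of -2.43, -1.17, -0.91 and 1.11. It was lower at 3 and 7 DAI and higher at 21 DAI, and its signals were the lowest of the called H2A probes, with that at 3 DAI close to the floor. After median scaling or quantile normalization the ratio of H2ac6 at 21 DAI was 0.96 and 0.98, under the 2-fold size.

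**Figure D2:**
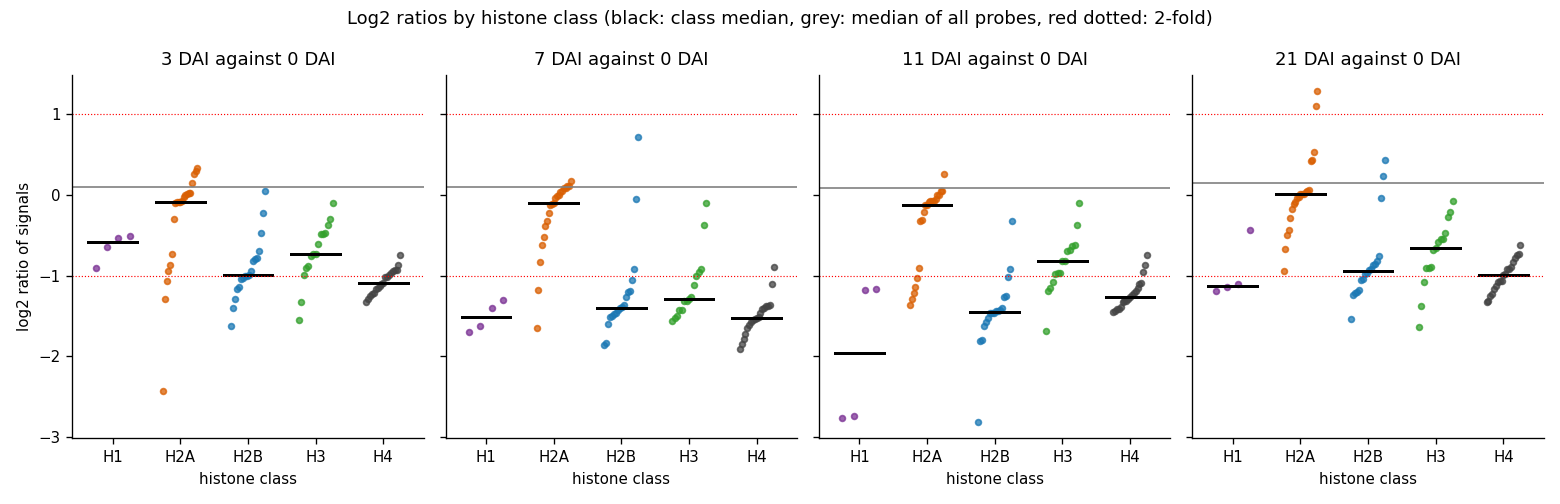
Log2 ratio of each histone probe to 0 DAI at 3, 7, 11 and 21 DAI, by class, with the class median (black), the median of all probes (grey) and the 2-fold size (red, dotted). The H2A medians lie between -0.12 and 0.01, and the medians of H2B and H4 between -0.94 and -1.53.

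**Figure D3:**
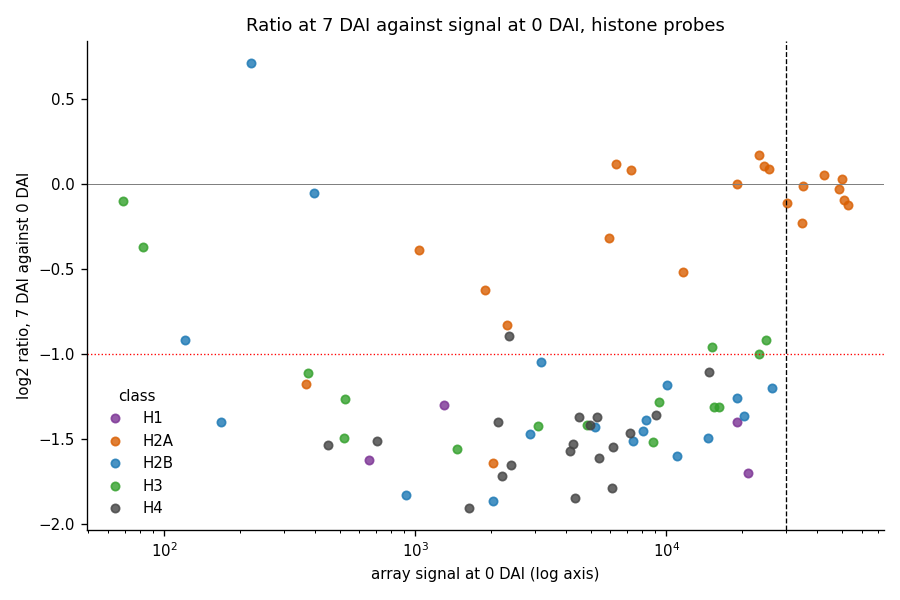
Log2 ratio of 7 DAI to 0 DAI against the signal at 0 DAI (log axis) for the histone probes above the floor at 0 DAI, coloured by class, with a dashed line at 30000. H2A probes between 5000 and 30000 lie near 0 or above -1, while the other classes at the same signals lie near or below -1.

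H2B is the partner of H2A, and 8, 15, 16 and 7 of its 18 probes were lower at 3, 7, 11 and 21 DAI. The class median was -0.99, -1.40, -1.44 and -0.94. The brightest, H2bc7, had 26276 on the 0 DAI array and 14880, 11420, 9749 and 13316 on those of 3, 7, 11 and 21 DAI, with ratios of -0.82, -1.20, -1.43 and -0.98. H2bc9 had 20325, 10181, 7880, 7557 and 11285, and its ratios of -0.997, -1.37, -1.43 and -0.85 were close to those of H2bc7. The lowest signal was at 11 DAI for 12 of the 18 probes, a count without the share of all probes beside it.

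H2bc3 had the largest fall of the class at 7 DAI, with 2052 on the 0 DAI array and 842, 564, 584 and 895 on those of 3, 7, 11 and 21 DAI and ratios of -1.29, -1.86, -1.81 and -1.20. H2bc8 had 920, 788, 259, 388 and 896, with ratios of -0.22, -1.83, -1.25 and -0.04. Its signals at 3 and 21 DAI thus stood near that at 0 DAI and those at 7 and 11 DAI were low. H2bc4 took another course, with 3160, 2289, 1527, 451 and 1092 and a ratio of -2.81 at 11 DAI, beside -0.47, -1.05 and -1.53 at the other times. Like H1f2, it was lowest at 11 DAI by a wide margin.

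Probes of 1 gene can read different transcripts, and 3 H2B genes had probes that differed by 1 or more. H2bc6 had a bright pair of probes with ratios of -1.26 and -1.39 at 7 DAI, and a dim one with 223 on the 0 DAI array and 130.0, 366, 60.4 and 302 on those of 3, 7, 11 and 21 DAI, whose ratio at 7 DAI was 0.72. H2bc21 had 11032 on the 0 DAI array and 5389, 3644, 4597 and 5357 on those of 3, 7, 11 and 21 DAI on 1 probe and a ratio of -1.60 at 7 DAI, while the other probe, at 395, 245, 381, 195 and 465, had -0.05. The second probe of H2bc4 lay at 121 at 0 DAI and under the floor at 7, 11 and 21 DAI, so its ratios there are bounds. The difference of 1.89 between the H2bc4 probes at 11 DAI thus rests on a bound. These 3 H2B genes are the members whose RefSeq span is over 1000 bases, while the other 57 span 375 to 911 bases. Probes also differed by 1 or more in H2ac20, H3c7 and H3c14, which are among the shorter genes. Which transcript each probe reads was not tested.

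**Figure D4:**
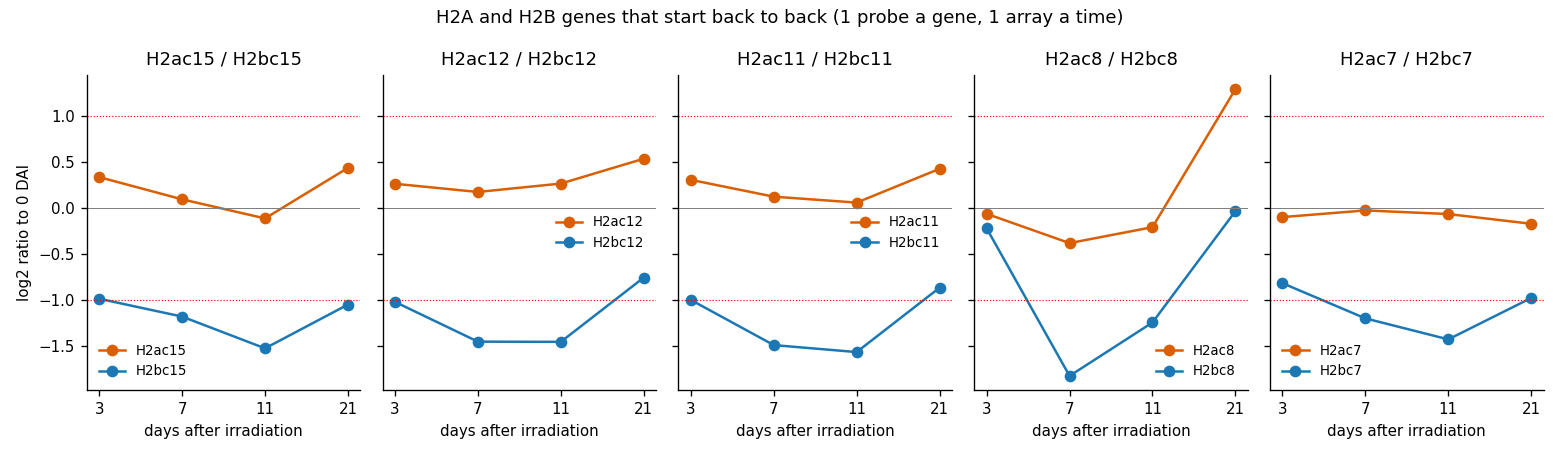
Log2 ratio to 0 DAI at 3, 7, 11 and 21 DAI of the H2A and H2B gene of 5 pairs that start back to back by their listed start sites, with 1 probe a gene, 1 array a time and dotted lines at 2-fold. In each pair the H2A line lies above the H2B line at all 4 times.

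In 6 pairs with a listed start site for both genes, an H2A and an H2B gene start back to back on chromosome 13, with 164 to 281 bases between the sites, and 5 pairs were measured. H2ac11 was given above, and its partner H2bc11 had 14713 on the 0 DAI array and 7347, 5230, 4962 and 8056 on those of 3, 7, 11 and 21 DAI, with ratios of -1.002, -1.49, -1.57 and -0.87. The H2A minus the H2B ratio of that pair was 1.30, 1.61, 1.62 and 1.29. Both genes share the promoter stretch with 5 CCAAT that is printed above.

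For H2ac8 and H2bc8, which share the stretch with the octamer, the difference was 0.16, 1.44, 1.03 and 1.33 at 3, 7, 11 and 21 DAI. H2ac12 and H2bc12 differed by 1.28 to 1.72, H2ac15 and H2bc15 by 1.27 to 1.48, and H2ac7 and H2bc7 by 0.72 to 1.36. The H2A ratio was the higher at each time in these 5 pairs. In 3 of them, however, those of H2ac7, H2ac12 and H2ac15, the H2A probe was above 30000 on at least 1 array. The second probes of H2ac7 and H2ac12, never above 30000, were also higher in ratio than these H2B probes at each time. At 7 DAI they had 0.11 and -0.0005, against -1.20 for H2bc7 and -1.45 for H2bc12.

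Other H2A and H2B neighbours lie as close, but the promoter table lists no start site for their H2B gene, and the H2A ratio was not the higher at every time in them. H2ac6 and H2bc4 have 240 bases between their facing ends, and H2ac6 minus the brighter H2bc4 probe was -1.97, -0.13, 1.90 and 2.64 at 3, 7, 11 and 21 DAI. H2ac20 and H2bc21, on chromosome 3, are 192 bases apart, and the H2ac20 probe that is not near saturation minus the brighter H2bc21 probe was -0.03, 0.77, -0.03 and 0.54, while the near-saturated H2ac20 probe was higher than that H2bc21 probe at each time. A further such pair, H2aw and H2bu1-ps on chromosome 11, has H2aw under the floor.

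H3 carries many of the marked residues of chromatin, and 2, 11, 4 and 3 of its 15 probes were lower at 3, 7, 11 and 21 DAI. The median was -0.73, -1.28, -0.81 and -0.66. H3c13 had 25087 on the 0 DAI array and 17935, 13307, 14305 and 17237 on those of 3, 7, 11 and 21 DAI, and the brightest probe of H3c10 had 23434, 16958, 11710, 11987 and 16117. Their ratios at 7 DAI were -0.91 and -1.001, on either side of the size rule. For 11 of the 15 H3 probes the lowest signal was at 7 DAI.

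H3c1 had 8876 on the 0 DAI array and 4473, 3101, 4212 and 4214 on those of 3, 7, 11 and 21 DAI, with a ratio of -1.52 at 7 DAI. A dim probe of H3c14 was lower at all 4 times, at -1.32, -1.56, -1.69 and -1.37, while its bright probe had -0.48, -0.96, -0.61 and -0.90, so that the probes differed by 1.07 at 11 DAI. The 3 measured probes of H3c7 differed by 1.45 at 3 DAI, but 1 of them lay at 68.6 at 0 DAI, close to the floor. H3c3 had 522, 310.2, 185, 325 and 168, and unlike the others it was lowest at 21 DAI, with a ratio of -1.64.

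H4 forms a pair with H3 at the centre of the nucleosome, and at each time its probes spanned the narrowest range of the core classes. Of 19 probes, 12, 18, 16 and 9 were lower at 3, 7, 11 and 21 DAI, 6 of them at all 4 times, and each was highest at 0 DAI. The class median was -1.09, -1.53, -1.26 and -0.99, and at 7 DAI the ratios lay between -1.90 and -0.90. The brightest, H4c1, had 14850 on the 0 DAI array and 8870, 6909, 7657 and 8872 on those of 3, 7, 11 and 21 DAI, with ratios of -0.74, -1.10, -0.96 and -0.74. The brighter probe of H4c12 had 7191, 2864, 2605, 2758 and 3441, with ratios of -1.33, -1.47, -1.38 and -1.06.

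H4c14, on chromosome 3, had the lowest H4 ratio at 7 DAI, with 1646 on the 0 DAI array and 842, 440, 663 and 660 on those of 3, 7, 11 and 21 DAI and ratios of -0.97, -1.90, -1.31 and -1.32. The brighter probe of H4f16, the member on chromosome 6 whose promoter above holds none of the motifs, had 4321, 1811, 1203, 1725 and 1737, with ratios of -1.25, -1.84, -1.32 and -1.31. This gene, on a chromosome of its own, belongs to the class, so its place in the class range is not a separate comparison. At 7 and 21 DAI its brighter probe was close to the lowest H4 ratios, -1.90 and -1.32. Its other probe had -0.99, -1.72, -1.09 and -0.91 at 3, 7, 11 and 21 DAI. Outside H2A, the median at 7 DAI was -1.47 for 7 probes on chromosome 3 and -1.40 for 46 probes on chromosome 13.

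The factors that make and use histone mRNA were read through 1 probe a gene, the brightest. Of 12 measured genes of histone mRNA 3′ end processing, 0 were called at any time. Over all genes read this way, 4.19%, 3.4%, 5.21% and 3.69% were lower and 5.56%, 4.09%, 6% and 2.56% higher at the successive times. For 3′ end processing the medians were 0.18, 0.15, 0.34 and 0.19. Slbp, the stem-loop binding protein, was under the floor on all 5 arrays. Of the transcription factors and cyclins of histone genes, 0 were lower, and Ccne2, a cyclin of the start of S phase, was higher at 3 DAI with a ratio of 1.22. Of the chaperones, 0 were lower, while Rbbp7, a subunit of chromatin assembly factors, had 1.22 at 3 DAI and Daxx, an H3.3 chaperone, had 1.06 at 11 DAI.

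The 53 histone genes read the same way had medians of -0.88, -1.31, -1.16 and -0.83, against 0.35, 0.03, 0.19 and 0.02 for 29 S phase and mitosis genes with a ratio. Of the S phase and mitosis genes, 0 were lower at any time and 1 was higher, the helicase subunit gene Mcm3, with 1.04 at 3 DAI. Among 9 measured replication-independent histone variants the medians were -0.29, -0.37, -0.28 and -0.15. The linker variant H1f10 had -1.36, -1.19, -2.01 and -0.52, and the H3.3 gene H3f3b had -1.21 at 11 DAI.

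Early response and heat shock genes, which cells switch on within a short time of a stimulus, were also lower. The list was chosen with earlier results of these data known, and it holds genes that the paper reports as changed here. Its counts are therefore not an independent observation. Of 21 measured genes, 15, 18, 18 and 17 were lower at the 4 times. Their medians were -1.20, -2.35, -2.50 and -2.06, and 18 were highest on the 0 DAI array. Fosb, an AP-1 subunit, had 13195 on the 0 DAI array and 3277, 92.0, 466 and 472 on those of 3, 7, 11 and 21 DAI. These genes are thus set apart by the same 0 DAI array, and their part in the histone result was not tested.

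Lineage markers were read to check the tissue. All 7 neutrophil markers were bright, with a summed signal between 276757 and 310656 on the arrays, and 0 were called, but all 7 were above 30000 on at least 1 array, so their level is only poorly measured. Of 4 measured erythroid markers, 2 were lower at 3 DAI and 4 at 21 DAI, and their summed signal was 38506 on the 0 DAI array and 16737, 49380, 27248 and 9984 on those of 3, 7, 11 and 21 DAI. It was above the sham-irradiated level at 7 DAI, when the 4 ratios lay between 0.05 and 0.68. The largest part of the sum there was Slc4a1, at 34587, which is above 30000 and so poorly measured. At 11 DAI Rhag and Klf1 had ratios of 0.92 and 0.61, and Alas2 and Slc4a1 had -0.85 and -0.60. The 5 stromal markers were all higher at 3 DAI, with a median of 3.49. The 4 measured B lineage markers moved in opposite directions. Cd72 and Cd79b, which mature B cells carry, had ratios of -3.68 and -2.26 at 3 DAI and -1.60 and -0.86 at 7 DAI, while Vpreb1 and Igll1, the surrogate light chain genes of B cell precursors, had 1.19 and 0.93 at 3 DAI and 2.24 and 2.33 at 7 DAI. At 11 and 21 DAI, 0 of the 4 were called. The part of these shifts in the histone result was not tested.

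**Figure D5:**
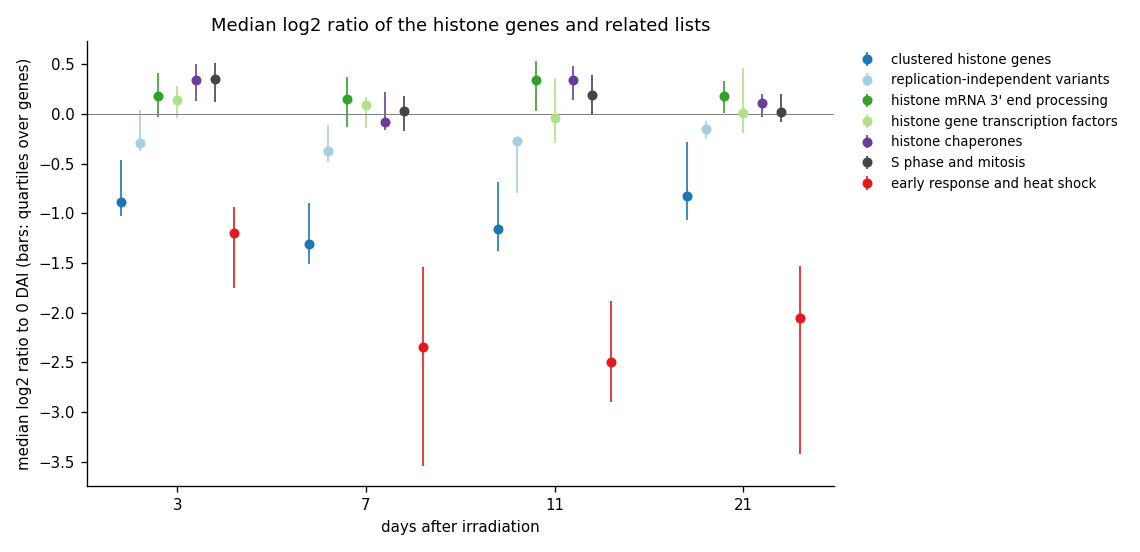
Median log2 ratio to 0 DAI at 3, 7, 11 and 21 DAI of the histone genes and 6 related lists, with 1 probe a gene and bars for the quartiles over genes, not an error between samples. The histone genes lie between -0.83 and -1.31, the S phase and mitosis genes between 0.02 and 0.35, and the early response and heat shock genes between -1.20 and -2.50.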

How the data were processed

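The deposited intensity values of 5 arrays were used, 1 for each time. The authors copied total RNA from an oligo(dT) primer, hybridized it to Illumina MouseWG-6 BeadChips and scaled the signals by average normalization in GenomeStudio (version 2010.2, per the submitters' processing notes). The mean was 535.7 on each array, and between 29.8% and 30.5% of probes lay above 64. No further scaling was applied. A table with 10 columns of non-normalized values could not be assigned to the samples and was not used. The number of arrays limits the precision.

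Probes were named from the platform's annotation and updated through RefSeq. Signals under 64 were raised to 64, and probes above 30000 were marked as near saturation. Log2 ratios to 0 DAI were called at 2-fold. No p-value, SD or set test was computed. The step was tested on simulated data.

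Members and lists were chosen with earlier results of these data known. Genes named are all H1 probes above the floor, in each core class the 4 brightest, the 3 lowest at 7 DAI and the 3 highest at any time, probes above 30000 or called higher, genes whose probes differ by 1 or more, and the 3 members of each related list with the largest ratio, given where a result turned on them. H2ac11, H2ac18, H2ac19, H2ac21, the pairs and neighbours of H2A and H2B genes, Vpreb1 and Slbp were added after their values were seen. So were the second probes of H2ac7 and H2ac12. Alternatives were scaling by quantiles (quantile normalization) or by the median, a floor raised to 100, adding 50 as a pseudocount in its place, sizes of 1.5-fold and 3-fold, 1 value a gene (brightest probe or mean), leaving out probes above 30000, no filter, and the other 3 irradiated arrays as baseline. Computation used pandas 2.3.3 and numpy 2.4.6 under Python 3.11.15, and figures used matplotlib 3.10.9.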

Additional observations from a re-analysis of the deposited data

Results flagged for a closer look

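The H2A gene H2ac6 was the histone probe called in opposite directions at different times. Its log2 ratio to 0 DAI was -2.43 and -1.17 at 3 and 7 DAI, but 1.11 at 21 DAI. With 1 array a time, the difference between times was not tested, and its lowest signal, 67.9 at 3 DAI, lay just above the floor of 64.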

How the results depend on the processing

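Of 192 counts and medians recomputed under another setting, 153 stayed within 1.5 times the count or within 0.25 of the median, and 27 of the 39 that did not came from the other baseline. Some of the 153 could not change, as other fold sizes leave the medians and dropping the filter leaves the counts as they were. Counts were compared as they stand, also where the totals differ, as in 16 of 53 against 25 of 77 at 3 DAI. With the mean of the 3 remaining irradiated arrays as baseline, 1, 2, 4 and 0 members were lower and 3, 1, 1 and 2 higher at 3, 7, 11 and 21 DAI, beside 3.57%, 3.25%, 6.21% and 3.31% of all probes lower and 3.29%, 3.57%, 3.54% and 0.477% higher. The members' median was then 0.16, -0.29, -0.14 and 0.21, that of H1 0.73, -0.53, -1.07 and 0.21, that of H2B 0.26, -0.22, -0.40 and 0.28, that of H3 0.26, -0.47, -0.15 and 0.18, and that of H4 0.10, -0.39, -0.032 and 0.23. Single probes called lower had a positive ratio under this baseline at 3 DAI H2bc11 (0.27), H2bc21 (0.25), H2bc3 (0.31), H3c14 (0.21), H4c6 (0.10), H4c11 (0.092) and H4f16 (0.22), at 7 DAI H2bc4 (0.26), at 11 DAI H1f1 (0.051), H2ac4 (0.23), H3c1 (0.10), H4c8 (0.045), H4f16 (0.12) and H4c14 (0.034), at 21 DAI H1f2 (0.23 and 0.20), H1f1 (0.018), H2bc21 (0.24), H2bc6 (0.068), H2bc3 (0.43), H3c1 (0.10), H3c14 (0.14), H4c12 (0.33), H4c8 (0.10), H4f16 (0.14) and H4c14 (0.025). This alternative leaves out the 0 DAI array, so it compares irradiated arrays with each other. At 1.5-fold, 51 members were lower at 3 DAI and 47 at 21 DAI (all probes 11.4% and 8.57%), and 1 was higher at 7 DAI (15%). At 3-fold, 2, 12, 7 and 1 of 77 were lower (all probes 1.4%, 1.15%, 1.71% and 1.52%), so that the count at 21 DAI is no more than the share of all probes, and 0 were higher at 21 DAI (0.241%). With median scaling, 36 were lower and 1 was higher at 21 DAI (4.88% and 1.46%), and with quantile normalization 1 was higher there (2.01%). With the brightest probe of each gene, 16 of 53 were lower at 3 DAI (4.19%). Under quantile normalization and median scaling, no named probe that was called changed direction. The floor, pseudocount, fold sizes, filters and choice of probe cannot reverse the sign of a probe's ratio, so they could not show such a change. No paired analysis was possible because each group has 1 sample. Near saturation limits what the 10 brightest H2A probes can show, and without them the H2A medians were -0.73, -0.39, -0.91 and 0.02.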
